A study of Mus musculus with 5 samples.

Results

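The MYC, MAX and MXD network was followed through 10 mouse genes: the activators Myc, Mycn and Mycl, the shared partners Max and Mlx, and the antagonists Mxd1, Mxd3, Mxd4, Mxi1 and Mnt. Its members were all probe sets of an Affymetrix mouse array whose annotation gave 1 of these symbols alone, which gave 24 of 45037 probe sets after control spots were left out, with every gene measured at least once. Activators had 7 probe sets, antagonists 14 and partners 3.

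RNA came from KLS cells, the c-Kit+, lineage-negative, Sca-1+ bone marrow fraction in which blood stem cells and multipotent progenitors lie. The 2 arrays titled wild type came from mice that were Rb +/+ p130 +/+ p107+/-, so 1 copy of p107 was already missing in them. The 3 deficient arrays came from mice that were Rb -/- p130 -/- p107-/-. Recombination used Mx1Cre, an inducible recombinase under an interferon-responsive promoter that is active in many cell types besides stem cells, at 6 weeks of age, and the labels give it for both groups. Cells were sorted 2 months later, and 1 of 6 hybridisations was left out by the study for high background. Whether an array stands for 1 animal or for a pool is left unsaid in the labels, so every p-value below measures only the spread between these arrays, which may be technical.

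MYC proteins are transcription factors that bind the DNA sequence called the E-box as pairs with MAX and raise the transcription of genes for growth, ribosome production and metabolism. MXD proteins, MXI1 and MNT pair with MAX as well, occupy the same E-boxes and recruit SIN3 corepressors, so that they oppose MYC. MLX pairs with some MXD proteins and with MNT, and also with sugar-responsive partners, and so links the network to nutrient sensing. In blood-forming tissue, Myc and Mycn act together in stem cell survival and in the balance between self-renewal and differentiation, and Mxd1 is known to increase as granulocytes mature. The pocket proteins RB, p107 and p130, removed here, restrain E2F factors, and E2F sites are known in the Myc and Mycn promoters.

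Promoter sequences were read because these 2 kinds of site tie the network to itself and to the deleted pocket proteins. RefSeq promoters of build GRCm38.p6, 250 bases before to 50 after a start site, were at hand for 9 of the 10 genes, in 11 entries, since Mxi1 has several starts; Myc was the gene with no entry. The canonical E-box CACGTG, which reads the same on both strands, was found in the promoters of Max, Mlx, Mnt and Mxd4, against 7.15% of all 32851 promoters in the table. The windows below hold 30 bases each, 5′ to 3′ on the strand of the gene, with the E-box in capitals. They lie at chr12:76962234-76962263 on the minus strand (Max), chr11:101087238-101087267 on the plus strand (Mlx), chr11:74830789-74830818 on the plus strand (Mnt) and chr5:34187912-34187941 on the minus strand (Mxd4).
Max: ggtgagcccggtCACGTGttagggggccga
Mlx: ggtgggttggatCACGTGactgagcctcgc
Mnt: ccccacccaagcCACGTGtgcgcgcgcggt
Mxd4: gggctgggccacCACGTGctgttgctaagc
An E2F site was searched as TTTCCCGC, TTTCGCGC, TTTGCCGC or TTTGGCGC on both strands, and was found in 1 member promoter, that of Mycn, against 2.26% of all promoters. Mycn held 3 matches between bases -183 and -161 before its start, of which the first pair overlap on opposite strands, at chr12:12941993-12942022 on the minus strand. All matched bases are in capitals.
Mycn: gctTTTGGCGCGAAAggcTTTGGCGCctcc
The non-canonical E-box CACGCG was found in Mycl alone (9.27% of all promoters). The cell cycle homology region, TTTGAA or TTCGAA, was found in Mycn alone (19.2% of all promoters). Both were searched on both strands. A match describes these letters and does not show that a factor binds there.

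Before the network, the labels and the sort were checked. Rbl1, the gene of p107, read 8.33 and 7.16 (log2 intensity) on the wild-type arrays and 5.15, 4.25 and 4.73 on deficient arrays 1, 2 and 3 (difference -3.04, limma's adjusted p = 0.0513 over all probe sets and 0.0266 with the brightest of each gene). Rb1 read 8.84 and 8.65 in wild type and 8.93, 7.77 and 8.46 in deficient arrays on its brighter probe set, and Rbl2, the gene of p130, read 8.62 and 7.997 against 7.90, 7.55 and 8.07. On their brighter probe sets both genes overlapped between groups (differences of -0.36 and -0.46), and deficient 1 read Rb1 above both wild-type arrays. A dimmer Rbl2 probe set, below the median probe set, read 4.71 and 4.70 in wild type and 4.13, 4.23 and 4.63 in deficient arrays. There every deficient array lay below both wild-type arrays (difference -0.37). The dimmer Rb1 probe set differed by 0.12 with overlapping groups. Whether these probes lie in deleted sequence is not given in the sources used here. Of the 3 targeted genes, Rbl1 alone separated the groups on its brightest probe set. Of the sort markers, the stem cell factor receptor gene Kit read 10.83 to 11.25 on all 5 arrays, Cd34 differed by 0.03, and Ly6a, the gene of Sca-1, was not measured under a single symbol. Slamf1 differed by -0.33, Flt3 by -0.32 and Cd48 by 0.02, each with overlapping groups, and Procr is given below. Median intensities lay between 26.1 and 26.7.

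Markers were counted in limma's fit over all probe sets (adjusted p under 0.05, passed by 0.164% of probe sets as higher in deficient arrays and 0.326% as lower), and again in a fit with only the brightest probe set of each gene (0.83% and 1.41% of genes). Neutrophil granule genes passed as lower in 8 of 9 and in 9 of 9, and their summed level (log2 of summed intensity) was 15.6 to 15.9 in wild-type and 10.4 to 11.2 in deficient arrays. Plasma and B cell genes passed as lower in 2 and in 4 of 8 (summed level 13.7 to 14.0 against 7.80 to 8.34). All 8 had lower means, with a median difference of -2.06, and the wild-type sum was mostly Igha (13.24 and 13.51). Cd79a, a defining B cell gene, had means of 4.65 in wild-type and 3.89 in deficient arrays, both below the median probe set (4.73). Ebf1 (4.39) and Ms4a1 (4.72) also had wild-type means below it. Vpreb1, Igll1 and Mzb1 had means of 9.54, 7.61 and 6.95 in wild type and 6.36, 5.84 and 4.59 in deficient arrays. Macrophage and dendritic cell genes passed as lower in 0 and in 1 of 7 (12.1 to 12.8 against 10.6 to 11.1). Handling-response genes such as Fos passed as lower in 2 and in 7 of 10 (14.3 in both wild-type arrays against 12.2 to 12.5). T and NK genes passed as lower in 1 and in 2 of 7. Of these, 6 had lower means and the list's median difference was -1.43, while the summed level (10.7 to 11.3 against 11.2 to 11.5) was mostly that of Nkg7, the member with a higher mean. Cell cycle genes such as Mki67 passed as higher in 2 and in 3 of 7 (13.2 to 13.5 against 14.1 to 14.4). Of 5 megakaryocyte genes 1, Itga2b (difference 1.19), passed as higher in both fits (summed level 12.0 to 12.1 against 12.0 to 12.4). In this list 3 genes had lower means, and the median difference was -0.29. Of 4 erythroid genes 0 passed in either, and their summed level was 11.5 and 12.1 in wild type and 12.3, 9.19 and 10.3 in deficient arrays 1, 2 and 3. In wild type and deficient 1 that sum was mostly Car1, which read 11.88, 6.31 and 9.07 in deficient arrays 1, 2 and 3. Among 6 sort and stem cell genes, Procr, the gene of the stem cell surface marker EPCR, read 10.71 and 10.27 in wild type and 8.80, 8.60 and 9.21 in deficient arrays (difference -1.62). Its adjusted p was 0.0560 over all probe sets and 0.0305 with the brightest alone. The part of these shifts in the values below was not tested, and in bulk RNA fewer cells of a type and less RNA per cell cannot be told apart.

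No member passed the test. In limma's fit over all probe sets, 0 of the 24 network probe sets reached a Benjamini-Hochberg adjusted p under 0.05, where 0.491% of all probe sets passed, 0.164% as higher in deficient arrays and 0.326% as lower. With p not adjusted, 4 were under 0.05, 2 higher and 2 lower, against 14.1% of all probe sets (7.28% higher and 6.82% lower). On 7 member probe sets the groups of arrays did not overlap, 2 with every deficient array above and 5 with every deficient array below, against 30.5% of all probe sets (15.4% above and 15.2% below). The largest sizes were those of Mnt (higher), Mycn, Mxd1 (both lower) and Myc (higher), each under 1 log2 unit. The plot of levels by array shows that the wild-type pair itself was far apart for Mycn and Mnt and close together for Mxd1, Mxd4 and Mxi1.

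**Figure D1:**
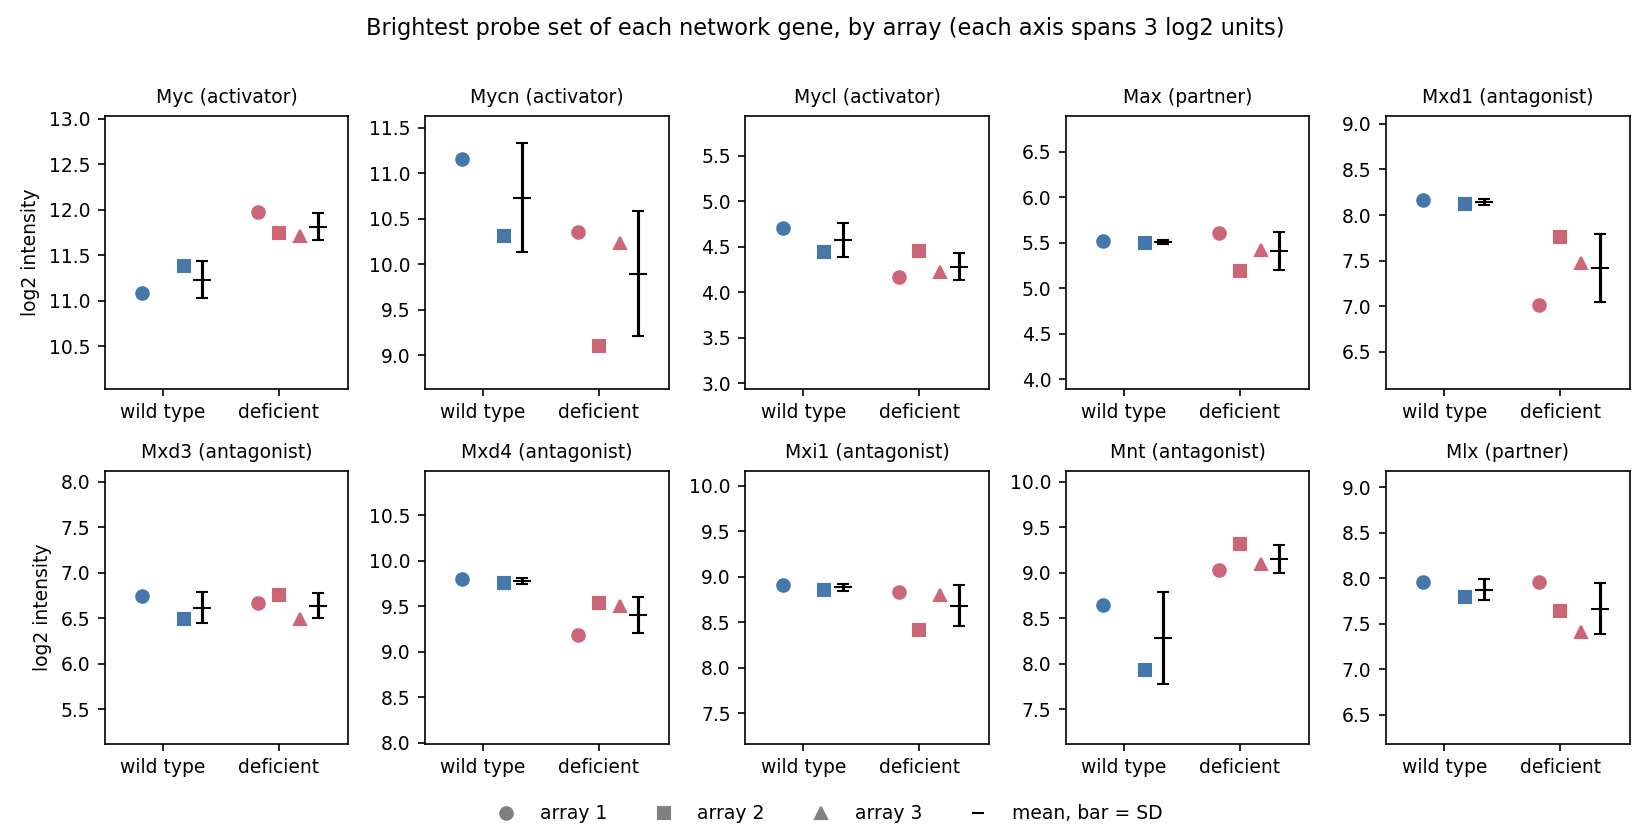
Log2 intensity of the brightest probe set of each of the 10 network genes (y axis, each panel spanning 3 log2 units) on the 2 wild-type arrays (blue) and 3 deficient arrays (red), with the symbol giving the array number and the black bar the group mean and SD. Deficient arrays lie above both wild-type arrays for Myc and Mnt and below both for Mxd1, Mxd4 and Mxi1, while the groups overlap for the other 5 genes.

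Myc, which encodes c-MYC, the activator most studied in proliferating cells, has 1 probe set (1424942_a_at). It read 11.09 and 11.38 on the wild-type arrays and 11.98, 11.75 and 11.71 on deficient arrays 1, 2 and 3 (log2 intensity). Every deficient array was above both wild-type arrays. The means were 11.23 ± 0.21 (SD, n = 2) and 11.81 ± 0.15 (SD, n = 3), a difference of 0.58 on the log2 scale (SE 0.15, 95% interval 0.22 to 0.94), or 1.49-fold. It did not pass over all probe sets (limma, unadjusted p = 0.00764, adjusted p = 0.163). In the fit of the brightest probe sets it did not pass either (adjusted p = 0.111), where 2.24% of 18193 genes did.

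Mycn, which encodes N-MYC and can stand in for Myc in stem cells, differed in the opposite direction on its brightest probe set (1417155_at). That probe set read 11.16 and 10.31 in wild type and 10.35, 9.10 and 10.23 in deficient arrays 1, 2 and 3. Deficient 2 was the lowest, deficient 1 lay just above wild type 2, and so the groups overlapped. The difference was -0.84 (SE 0.44, 95% interval -1.91 to 0.24, adjusted p = 0.490), the widest interval of the brightest probe sets. It was -0.44 without deficient 2 and -0.41 without wild type 1, and -1.06 without deficient 1 and -1.26 without wild type 2. Deficient 2 was also the lowest array in the summed erythroid markers (9.19), while deficient 1, also below the wild-type mean of Mycn, was the highest in them (12.3). That range was mostly Car1, which read 11.88 in deficient 1 and 6.31 in deficient 2. On the same arrays Klf1 read 10.26 and 8.53, Epor 7.66 and 6.88, and Hba-a1 3.86 and 4.02. The part of these markers in the Mycn value was not tested. The other Mycn probe sets read far dimmer and differed by 0.06 (1425923_at, 5.81 to 6.20 over the 5 arrays) and -0.21 (1425922_a_at). On the latter, wild type read 5.40 and 5.45 and the deficient arrays 5.16, 5.26 and 5.20, a small difference with no overlap (adjusted p = 0.437).

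Mycl, which encodes L-MYC, read low. All 3 of its probe sets lay below the median probe set (4.73), between 3.74 and 4.71 on every array, where RMA (robust multi-array average, the method that produced the values) compresses differences. Its brightest probe set (1434777_at) differed by -0.30 (95% interval -0.65 to 0.06; -0.16 without wild type 1), and the other 2 by 0.04 and -0.03. The files hold no detection call, so these values do not show whether Mycl was expressed.

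Max encodes the obligate partner that both MYC and MXD proteins need to bind DNA. Its single probe set (1423501_at) read 5.52 and 5.49 in wild type and 5.61, 5.19 and 5.43 in deficient arrays. The groups overlapped, and the difference was -0.10 (SE 0.15, 95% interval -0.46 to 0.26, adjusted p = 0.849). Mlx encodes the parallel partner. On its brighter probe set (1418437_a_at) it read 7.96 and 7.79 in wild type and 7.96, 7.64 and 7.41 in deficient arrays, again with overlap. The difference was -0.21 (95% interval -0.66 to 0.24), or -0.08 without deficient 3, -0.13 without wild type 1 and -0.35 without deficient 1, and the dimmer probe set gave -0.16 (1425930_a_at). Neither partner passed, and with 2 against 3 arrays the intervals reach down to -0.46 and -0.66 on the log2 scale.

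Among the antagonists, Mxd1 had the largest lower value. Mxd1 encodes MAD1, which pairs with MAX during differentiation. Its brightest probe set (1434830_at) read 8.17 and 8.12 in wild type and 7.01, 7.75 and 7.47 in deficient arrays 1, 2 and 3. Every deficient array lay below the wild-type pair, with deficient 1 the lowest. The difference was -0.73 (SE 0.22, 95% interval -1.27 to -0.19), or 1.66-fold lower, with unadjusted p = 0.0166 and adjusted p = 0.220. A dimmer probe set (1455104_at) read 5.40 and 5.55 against 4.72, 5.25 and 5.26, with the same order of groups and no overlap (difference -0.40, adjusted p = 0.445). The dimmest (1422002_at) lay below the median probe set and differed by -0.03. The neutrophil granule genes, markers of cells in which Mxd1 is known to be high, were lower in the same arrays (9 of 9, median difference -5.30), and their part in the Mxd1 value was not tested.

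Mxd4 encodes MAD4, the family member known from slowly dividing and differentiated cells. Its brightest probe set (1434378_a_at) read 9.80 and 9.75 in wild type and 9.18, 9.53 and 9.50 in deficient arrays, all 3 below the pair. The difference was -0.37 (SE 0.14, 95% interval -0.72 to -0.02, unadjusted p = 0.0414, adjusted p = 0.328), or 1.29-fold lower. The other 3 Mxd4 probe sets differed by -0.21 (1434379_at), -0.32 (1422574_at) and -0.00133 (1422575_at), and on each of them the groups overlapped.

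Mxi1 encodes a MAD-family repressor that recruits SIN3. Its brightest probe set (1450376_at) read 8.91 and 8.85 in wild type and 8.83, 8.42 and 8.80 in deficient arrays. The deficient arrays lay below the pair, deficient 2 by the most and the others by little. The difference was -0.20 (SE 0.16, 95% interval -0.58 to 0.18, adjusted p = 0.675), and -0.07 without deficient 2. The dimmer Mxi1 probe set (1425732_a_at) read 4.87 and 5.53 in wild type and 4.90, 5.81 and 4.88 in deficient arrays, where array number 2 was the highest in each group.

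Mxd3 encodes MAD3, the family member whose expression is known to accompany S phase and which is a described E2F target. It showed no direction that held: its 3 probe sets differed by 0.02 (1448878_at), 0.17 (1438847_at) and -0.10 (1422970_at), and all 3 overlapped between groups. The brightest read 6.74 and 6.49 in wild type and 6.67, 6.75 and 6.49 in deficient arrays. The 95% interval of that probe set ran from -0.31 to 0.36.

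Mnt, the broadly expressed antagonist that pairs with MAX in resting and dividing cells alike, had the largest higher value of the antagonists. Its brightest probe set (1418192_at) read 8.64 and 7.93 in wild type and 9.03, 9.32 and 9.10 in deficient arrays. All deficient arrays lay above both wild-type arrays, and wild type 2 was the lowest by a wide margin. The difference was 0.86 (SE 0.23, 95% interval 0.31 to 1.42), or 1.82-fold, with unadjusted p = 0.00913 and adjusted p = 0.173. It was 0.51 without wild type 2 and 1.22 without wild type 1. The other Mnt probe set (1418193_at) lay close to the median probe set, at 4.62 to 5.03 over the 5 arrays, and differed by -0.19 with overlapping groups, so the higher value rests on 1 probe set.

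**Figure D2:**
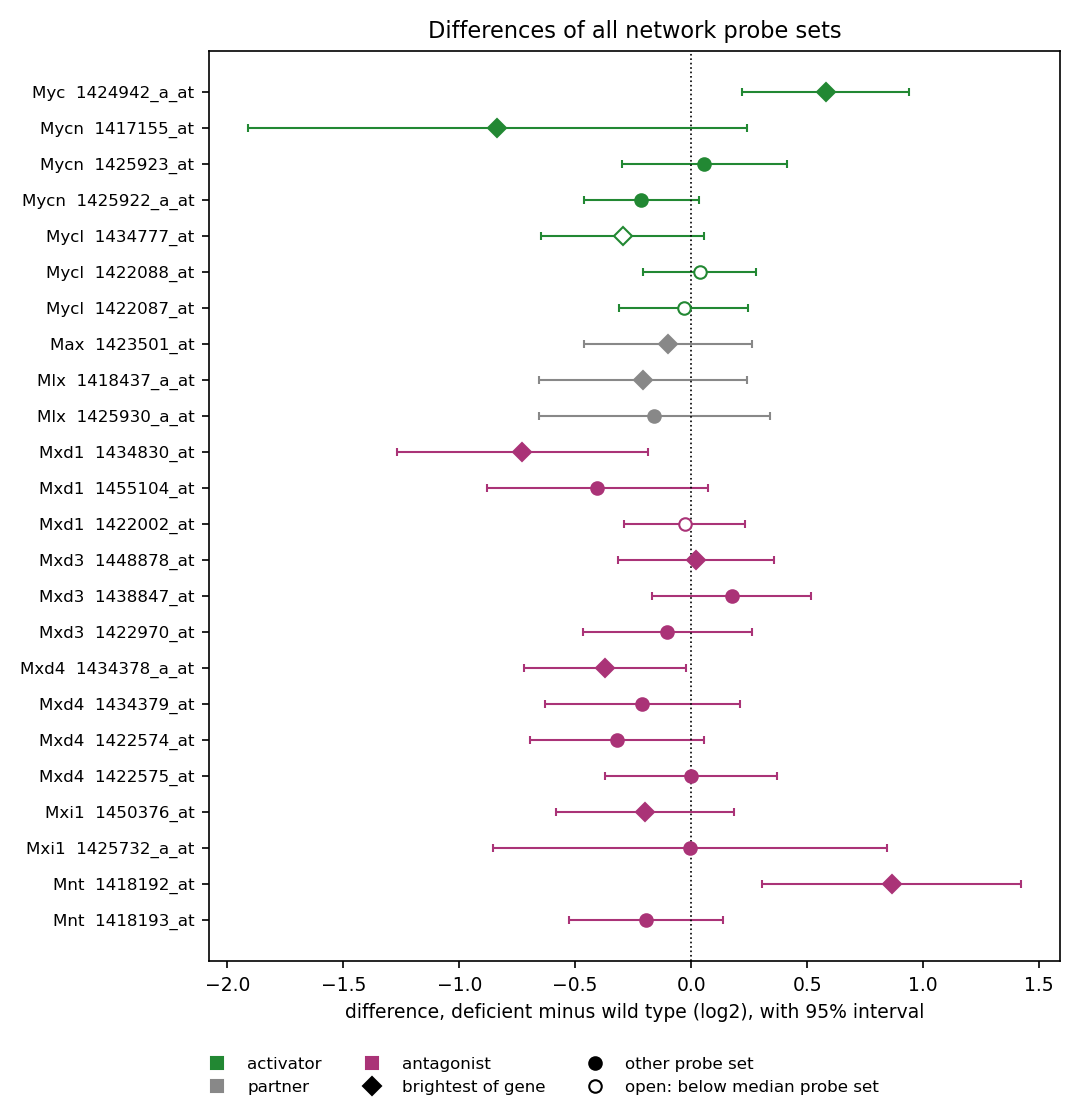
Difference between deficient and wild-type means (log2, x axis) for all 24 network probe sets, with 95% intervals from the limma fit; diamonds mark the brightest probe set of each gene and open symbols the probe sets below the median probe set. The intervals of Myc and Mnt lie above 0 and those of Mxd1 and Mxd4 below it on their brightest probe sets, without adjustment for the number of probe sets. Dimmer probe sets of Mxd1 and Mxd4 lie closer to 0, that of Mnt lies on the other side of it (-0.19), and Myc has no other probe set.

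Across all 24 probe sets, 18 had lower and 6 higher means in deficient arrays, and the median difference was -0.13, beside 0.00266 over all 45037 probe sets, of which 22281 had lower means. Quantile normalization again, cyclic loess or median centring each gave 16 lower and 8 higher. By role, the median was -0.03 over 7 activator, -0.15 over 14 antagonist and -0.16 over 3 partner probe sets. In 11 of the 14 antagonist probe sets the mean was lower in deficient arrays, and in 4 of the 7 activator probe sets. Several of these probe sets share a gene, and values as small as -0.00133 (Mxd4, 1422575_at) count as lower. By gene, on the brightest probe set, 3 of 5 antagonists and 2 of 3 activators had lower means.

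The sides were then set against each other array by array. Levels of different probe sets cannot be compared on an array, so each gene was expressed as its change from its own wild-type mean on its brightest probe set. The 3 activators had a mean change of -0.01, -0.41 and -0.12 log2 units in deficient arrays 1, 2 and 3. The 5 antagonists had a mean change of -0.20, 0.02 and -0.07. Activators minus antagonists therefore came to 0.18, -0.43 and -0.06, with a mean of -0.10 ± 0.31 (SD, n = 3) and with no common sign. With the mean of all probe sets of each gene, the 3 values were 0.32, -0.13 and 0.17. The sides as a whole showed no shift larger than the spread between arrays, and within each side the means differed in sign: that of Myc was higher and that of Mycn lower, and those of Mnt and, by 0.02, Mxd3 were higher while those of Mxd1, Mxd4 and Mxi1 were lower. None of these passed.

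The change of Myc was also set against that of each antagonist. The change of Myc minus that of Mxd1 was 1.88, 0.90 and 1.15 log2 units in deficient arrays 1, 2 and 3, with the wild-type arrays 0.17 to each side of 0. Against Mxd4 the values were 1.34, 0.75 and 0.75. Against Mxi1 they were 0.80, 0.98 and 0.56, and against Mxd3 0.69, 0.37 and 0.61 with the wild-type arrays 0.27 to each side. Every deficient array was above both wild-type arrays in these 4 pairs, all of which hold the same Myc values, and these separate the groups by themselves; against Mxd3, which differed by 0.02, the pair mostly restates Myc. Of single probe sets, 15.4% had every deficient array above both wild-type arrays. The share for differences between 2 probe sets was not computed. Against Mnt the values were 0.00471, -0.52 and -0.34, and the wild-type arrays, 0.50 to each side of 0, spanned nearly all of them. These pairs were read after the single genes were known and carry no test.

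**Figure D3:**
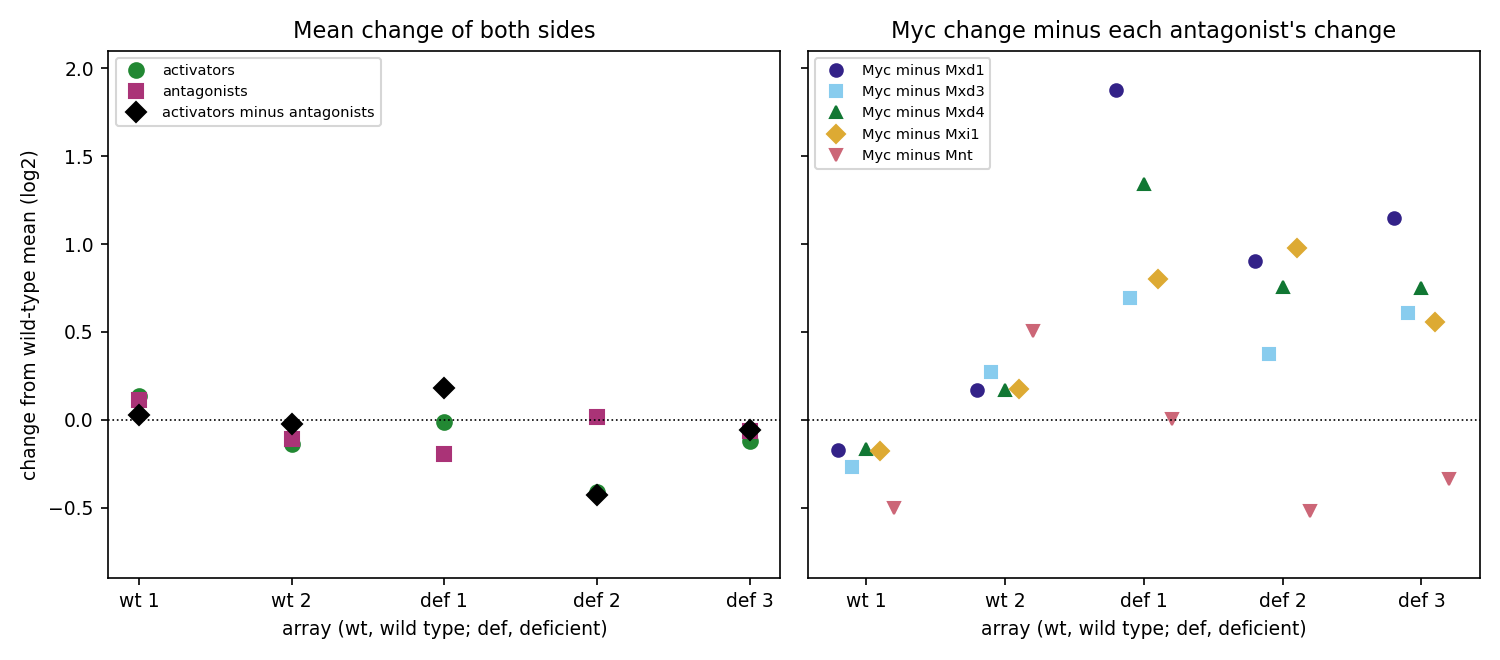
Change from the wild-type mean (log2, y axis) on each of the 5 arrays. The left panel gives the mean over 3 activators, over 5 antagonists and their difference, which is 0.18, -0.43 and -0.06 in the deficient arrays; the right panel gives the change of Myc minus that of each antagonist, which is above both wild-type arrays in every deficient array for Mxd1, Mxd3, Mxd4 and Mxi1, and not for Mnt.

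Genes that act with, upon or below the network were compared in that fit of the brightest probe sets, where the median difference of all genes was -0.01, and 0.83% of genes passed as higher and 1.41% as lower. With p not adjusted, 8.79% of genes were higher and 9.86% lower at a p under 0.05. The lists hold textbook members and were drawn up with earlier results of these data known.

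MYC-activated targets, which serve ribosome production, nucleotide and polyamine synthesis and translation, had higher means in 29 of 32 genes, and their median difference was 0.30. Of these, 0 passed in limma, and 13 genes at an unadjusted p under 0.05 were all higher. Polr1b, a subunit of RNA polymerase I, read 9.13 ± 0.09 in wild type and 9.72 ± 0.08 in deficient cells (0.59, adjusted p = 0.0634). The nucleolar protein gene Nolc1 differed by 0.59, the cap-binding factor gene Eif4e by 0.53 and Cad, which encodes the first enzymes of pyrimidine synthesis, by 0.69, with adjusted p from 0.0659 to 0.104. The 3 with lower means were Hspe1, Ccnd2 and Cdk4. The median change of the list was 0.29, 0.31 and 0.28 in deficient arrays 1, 2 and 3, and -0.09 and 0.09 in wild type 1 and 2, so all deficient arrays lay above both. Without wild type 1 the median was 0.23, and without wild type 2 it was 0.38. The cell cycle markers had higher means in the same arrays (7 of 7, median difference 0.73), and their part in this was not tested.

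MYC-repressed targets did not share a direction. Of 10 genes, 1 passed as higher and 1 as lower in the fit of the brightest probe sets and 0 over all probe sets, and the median was -0.13 (-0.08 without wild type 1 or 2). Cebpa, a myeloid transcription factor gene, read 7.28 ± 0.40 in wild type and 8.44 ± 0.12 in deficient cells (difference 1.16, adjusted p = 0.0439, but 0.0743 over all probe sets). Cdkn1a, which encodes the CDK inhibitor p21, read 10.03 ± 0.24 and 9.03 ± 0.20 (difference -1.004, adjusted p = 0.0458, but 0.0779 over all probe sets). Gadd45b and Ndrg2 came next, at -0.59 and -0.39, and did not pass. When any 1 deficient array was left out, 0 genes of this list passed. In those fits 14 to 24 of 18193 genes passed as higher and 57 to 84 as lower.

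Genes of MYC protein turnover had higher means in 10 of 12, with a median of 0.35. Of these, 0 passed, and the 5 with an unadjusted p under 0.05 were all higher. Cip2a, an inhibitor of the phosphatase that destabilises MYC, differed by 1.06, the ubiquitin ligase gene Huwe1 by 0.71, the deubiquitinase gene Usp36 by 0.74 and Fbxl14 by 0.56, with adjusted p from 0.0827 to 0.108. Fbxw7, the ligase that marks phosphorylated MYC for destruction, differed by 0.24. Both stabilising and destabilising genes are thus among those with higher means. With 1 array left out the list median ran from 0.30 to 0.45.

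Cofactors of MYC (13 genes, median 0.06) and corepressors of MXD and MNT (9 genes, median 0.14) had 0 members past the threshold. The cofactor median was 0.13 without deficient 1 and the corepressor median 0.06 without wild type 1. Among the cofactors, the chromatin remodeller gene Ep400 differed by 0.61, Bin1, which restrains MYC, by -0.44, the acetyltransferase gene Kat2a by 0.31 and Trrap by 0.54, with 2 higher and 1 lower when p was not adjusted. Among the corepressors, Hdac2 differed by 0.40, Hdac1 by -0.29, the scaffold gene Sin3a by 0.40 and Rbbp7 by 0.16, with 1 higher and 0 lower when p was not adjusted.

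Factors and pathways known to feed into Myc transcription (11 genes, median 0.12) also had 0 past the threshold, with 2 higher and 1 lower when p was not adjusted. E2f3 differed by 0.61 (adjusted p = 0.0578), the insulator gene Ctcf by 0.33, E2f4 by 0.27 and Notch1 by -0.72. The neighbouring basic helix-loop-helix zipper genes outside the 10 members (9 genes, median -0.06, but 0.09 without wild type 1 and 0.01 without deficient 3) had 0 past the threshold, with 2 higher and 1 lower when p was not adjusted. Mlxip, which encodes the glucose-sensing MLX partner MondoA, read 7.64 ± 0.33 in wild type and 8.29 ± 0.14 in deficient cells (0.64, adjusted p = 0.121). Mga, a repressor that also pairs with MAX, differed by 0.51, Usf1, an E-box binder outside the MAX pairings, by -0.43, and Tfeb by -0.16.

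**Figure D4:**
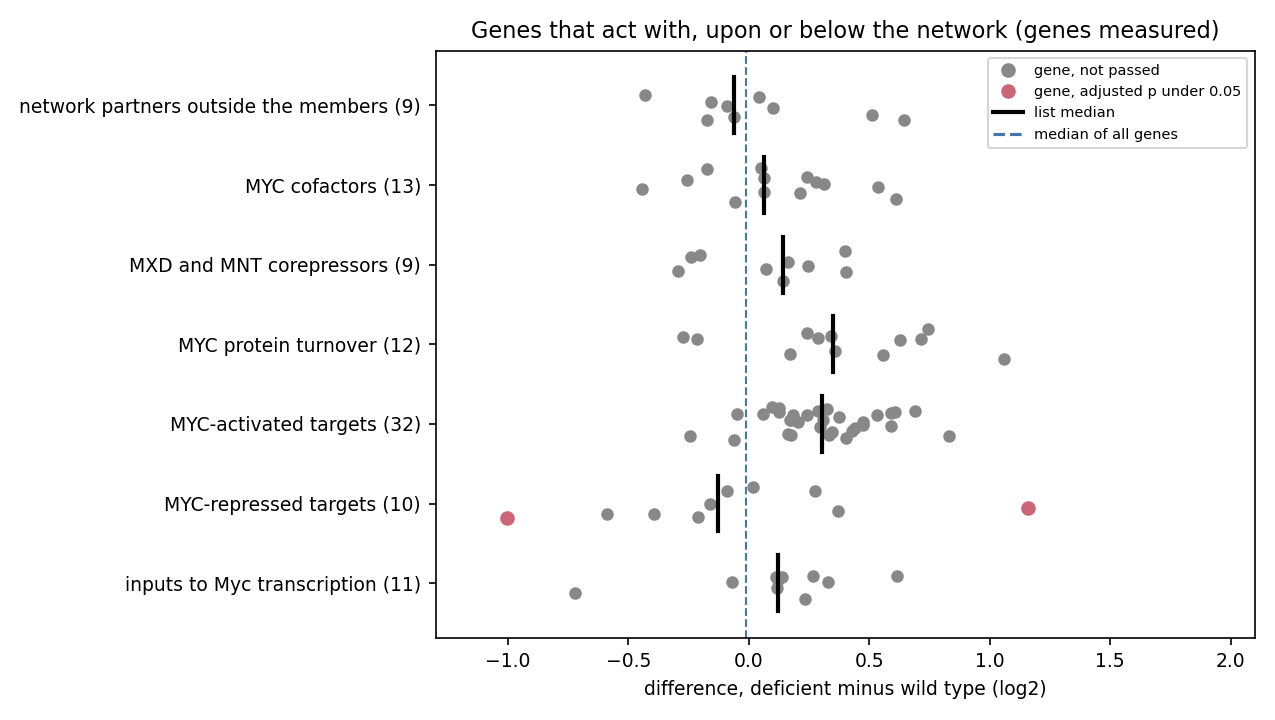
Difference between deficient and wild-type means (log2, x axis) for each measured gene of 7 lists (rows, with the number of genes measured), with the list median as a black bar and the median of all genes as a dashed line. The 2 red points, Cebpa (1.16) and Cdkn1a (-1.004), passed an adjusted p under 0.05 in the fit of the brightest probe sets and not over all probe sets; the medians of the activated targets (0.30) and of protein turnover (0.35) lie furthest from that of all genes.

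Genes with the most similar pattern were sought for the activator and the antagonist with the largest difference, Mycn and Mnt, among 11591 genes above the median probe set, by the root mean square distance between centred log2 values over the 5 arrays. Nearest to Mycn were Cc2d2a (distance 0.11), Gm17399 (0.13) and Cavin2 (0.13). Each was highest in wild type 1 and lowest in deficient 2, as Mycn was. Nearest to Mnt were Foxk1 (0.06), Cit (0.07) and Kat6b (0.07), each lowest in wild type 2 and highest in deficient 2. With 5 arrays and so many candidates, such likeness is a description of these arrays only.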

How the data were processed

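RNA from sorted KLS cells was hybridised to Affymetrix mouse arrays. The authors deposited 1 linear intensity per probe set and array, made with RMA per the submitters' processing notes; the version, and whether the excluded array was normalized with the others, are not stated in the sources used here. RMA forces arrays to 1 distribution, so a shift of all transcripts would not be seen. Here log2 was taken (intensities ran from 6.96 to 31249), 64 AFFX control probe sets were left out, and limma 3.58.1 in R 4.3.3 (lmFit, eBayes, two-sided, no covariate) was fitted to all 45037 probe sets and 5 arrays, with Benjamini-Hochberg adjustment and a threshold of 0.05. The fit was tested on simulated data. Another fit used the brightest probe set of each of 18193 genes. Gene names came from GEO's platform annotation (34945 with 1 symbol, 932 with several, 9160 with none), and 162 of 172 list and marker genes matched. Network and list genes were chosen with earlier results of these data known. Named are all members and, in each list, up to 4 genes with the smallest p and any that passed; Hspe1, Ccnd2, Cdk4 and Fbxw7 lie outside it and were picked once their values were known. Alternatives were other normalizations, filters, priors, weights and thresholds, the replicate block and leaving out each array. For arrays no depth applies: their number limits the precision.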

Additional observations from a re-analysis of the deposited data

How the results depend on the processing

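Under all 16 alternatives (20 of the 24 probe sets remained without dim ones) 0 network probe sets or genes passed as higher and 0 as lower, including an adjusted p under 0.1. Several alternatives alter the test and not a gene's difference, so a kept direction under them shows nothing. Of the differences of the 10 genes, 3 values changed sign: Mxd3 was -0.10 without wild type 2 and -0.04 without deficient 2, and Max was 0.00816 without deficient 2; the cause was not tested. With 1 array left out Mxd3 ran from -0.10 to 0.14 and Max from -0.20 to 0.00816. The adjusted p of Myc ran from 0.0949 (averaging a gene's probe sets) to 0.441 (without wild type 1); its 0.0949 and the 0.0989 of an intensity trend with a robust prior were judged at 0.05. Activators minus antagonists, -0.10 on average over the deficient arrays, changed sign to 0.12 with the mean of all probe sets and to 0.06 without deficient 2, and ran from -0.24 to 0.06 with 1 array left out, within the spread between arrays. Equal replicate numbers in both groups are not said to mark a shared source, and the deviations of equally numbered arrays correlated at -0.05 and -0.02. With the replicate block, in which deficient 3 has no partner and so drops out of the differences, these were 0.63 for Myc, -1.01 for Mycn, -0.76 for Mxd1 and 0.89 for Mnt, with 0 members passing and 0 higher and 15 lower calls over all probe sets, against 74 and 147. Over all probe sets, an intensity trend with a robust prior called 147 higher and 266 lower, an adjusted p under 0.1 called 451 and 497, and leaving out 1 array 2 to 5 higher and 21 to 73 lower. Leaving out each array for the gene lists was chosen after seeing the data. Signal over background limits Mycl and the dimmer probe sets most.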
